A study of Mus musculus with 16 samples.

Results

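Meox1 and 9 other genes for transcription factors of fibroblasts and mesenchyme were followed in mouse hearts: the homeobox genes Meox1, Meox2 and Prrx1, the basic helix-loop-helix genes Tcf21, Scx, Twist1 and Twist2, the zinc-finger genes Snai1 and Snai2, and the runt-domain gene Runx1. They were selected by symbol with their group means and fold changes in these data already known, so their values are a description and not independent evidence of a direction. All 10 were found among the 22098 genes that appear in at least 1 of the 4 tables of the series. RNA sequencing was performed on heart tissue of mice that had undergone TAC, the usual abbreviation of transverse aortic constriction, a narrowing of the aorta that loads the left ventricle with pressure, or a sham operation. The hearts had received NR or vehicle. The 16 libraries formed 4 groups: 5 NR TAC, 4 Vehicle TAC, 4 NR SHAM and 3 Vehicle SHAM. NR is nicotinamide riboside in this field's usage, and the series title speaks of raising NAD+. Strain, age, dose and time after surgery are not given in the sources used here. The labels do not say whether each library came from its own animal, so the p-values measure the spread between libraries, which may be technical.

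The tables hold 1 comparison of 2 groups each, with the authors' mean of normalized counts per group and their DESeq test. Values of single libraries, library totals and standard deviations are not used here, so no counting interval can be given. The heart markers were present throughout: the lowest group mean of 12 cardiomyocyte genes was 32594 normalized counts in the authors' deposited tables. Vehicle TAC also carried liver transcripts. The summed means of 20 hepatocyte genes were 53933 in Vehicle TAC against 1160 in Vehicle SHAM, and 2230 in NR TAC against 1025 in NR SHAM, with Fgb and Ambp at 0 in NR TAC. In NR hearts 15 of the 20 were lower after TAC and 5 were higher (median log2 fold change −2.49). Hp, 1 of the 5, had 500 in NR TAC against 83.0 in NR SHAM. In bulk tissue, fewer cells of a type and less RNA per cell cannot be told apart. Vehicle TAC enters both the TAC effect in vehicle hearts and the NR effect in TAC hearts, and every other group is likewise shared by 2 comparisons.

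Fibroblasts of the heart arise mainly from the epicardium, a step that needs Tcf21, and keep the matrix between the muscle cells. Under load they become activated, and some turn into contractile myofibroblasts that lay down collagen and periostin. Meox1 is a homeobox factor known in mice to be switched on in fibroblasts of the stressed heart. Scx, first known from tendon, activates collagen genes, Snai1, Snai2, Twist1 and Twist2 are repressors and regulators of epithelial to mesenchymal transition, Prrx1 is broadly active in mesenchyme, and Runx1 acts in blood cells and in activated fibroblasts. Meox2, the close paralog of Meox1, is also active in endothelium of the heart. The helix-loop-helix factors bind the E-box, CANNTG, as dimers with E proteins, and Id proteins hold those partners back.

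The promoter windows show which of these factors' own motifs lie just upstream of the genes. RefSeq sequences on GRCm38.p6 matched 7 of the 10 members by symbol, all but Meox1, Scx and Snai2, in 8 windows, since Runx1 has 2 start sites. The 4 windows whose start site is also the GENCODE gene start are printed, all on the plus strand, as the 250 bases before the start. They hold Snai1, the paralogs Twist1 and Twist2, and Meox2, the paralog of Meox1. Capitals mark CANNTG and, on either strand, TATAAA.
Snai1, chr2:167537945-167538194: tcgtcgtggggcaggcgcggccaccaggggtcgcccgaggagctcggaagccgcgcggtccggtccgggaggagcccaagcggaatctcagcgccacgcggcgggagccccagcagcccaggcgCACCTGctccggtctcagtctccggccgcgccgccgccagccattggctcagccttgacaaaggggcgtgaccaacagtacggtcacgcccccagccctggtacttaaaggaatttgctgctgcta
Twist1, chr12:33957421-33957670: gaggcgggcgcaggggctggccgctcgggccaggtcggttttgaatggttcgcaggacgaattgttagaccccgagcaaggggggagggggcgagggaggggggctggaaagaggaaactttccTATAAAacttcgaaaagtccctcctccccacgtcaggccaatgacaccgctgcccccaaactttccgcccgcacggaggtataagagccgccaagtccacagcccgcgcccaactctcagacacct
Twist2, chr1:91801211-91801460: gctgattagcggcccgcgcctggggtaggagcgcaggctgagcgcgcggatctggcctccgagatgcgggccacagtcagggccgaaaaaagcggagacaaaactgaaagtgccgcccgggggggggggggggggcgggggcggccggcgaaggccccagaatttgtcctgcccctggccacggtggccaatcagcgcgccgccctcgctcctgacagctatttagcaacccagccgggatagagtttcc
Meox2, chr12:37108290-37108539: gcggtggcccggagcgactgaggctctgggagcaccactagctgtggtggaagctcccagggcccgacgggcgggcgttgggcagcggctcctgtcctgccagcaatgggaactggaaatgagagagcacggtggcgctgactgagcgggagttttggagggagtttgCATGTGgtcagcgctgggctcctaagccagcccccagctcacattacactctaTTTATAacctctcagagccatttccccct
Searched on both strands, CANNTG was found in 3 of the 8 windows, those of Snai1, Meox2 and the upstream Runx1 start, and in 66.2% of all 32817 mouse promoter windows of this length. CAGGTG, the E-box form that Snail proteins prefer and a subset of CANNTG, lay in the Snai1 and upstream Runx1 windows (17.2% of all windows). In Snai1 it read CACCTG, 126 bases before the start. TGTGGT, a runt-domain motif, was found at 2 places in the Meox2 window (14.0% of all windows hold it), and TAATTA, a homeodomain motif, in the Prrx1 window (4.85%). TATAAA lay in the Meox2 window as TTTATA, 29 bases before the start, and in the Twist1 window, 126 bases before it (12.4%). No window held the CArG box of serum response factor, which 1.47% of all windows hold. Letters alone do not show binding.

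On a common scale, made from the deposited group means by the constant ratio between tables, the genes differed widely in level. Per kilobase of exon, Vehicle SHAM hearts had 324 normalized counts of Meox2, 223 of Prrx1, 157 of Tcf21, 126 of Meox1, 119 of Snai1, 98.9 of Scx, 83.7 of Snai2, 36.0 of Twist1, 5.77 of Runx1 and 5.26 of Twist2. Meox1 thus came after Meox2, Prrx1 and Tcf21 in Vehicle SHAM, but led the order in Vehicle TAC, at 343 per kilobase. The neighbours in the order cannot be separated by a spread, since the tables give none. Of the 10 genes, 6 had their highest group mean in Vehicle TAC, 2 in NR TAC and 2 in Vehicle SHAM. The lowest mean was in NR SHAM for 6 of them.

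**Figure D1:**
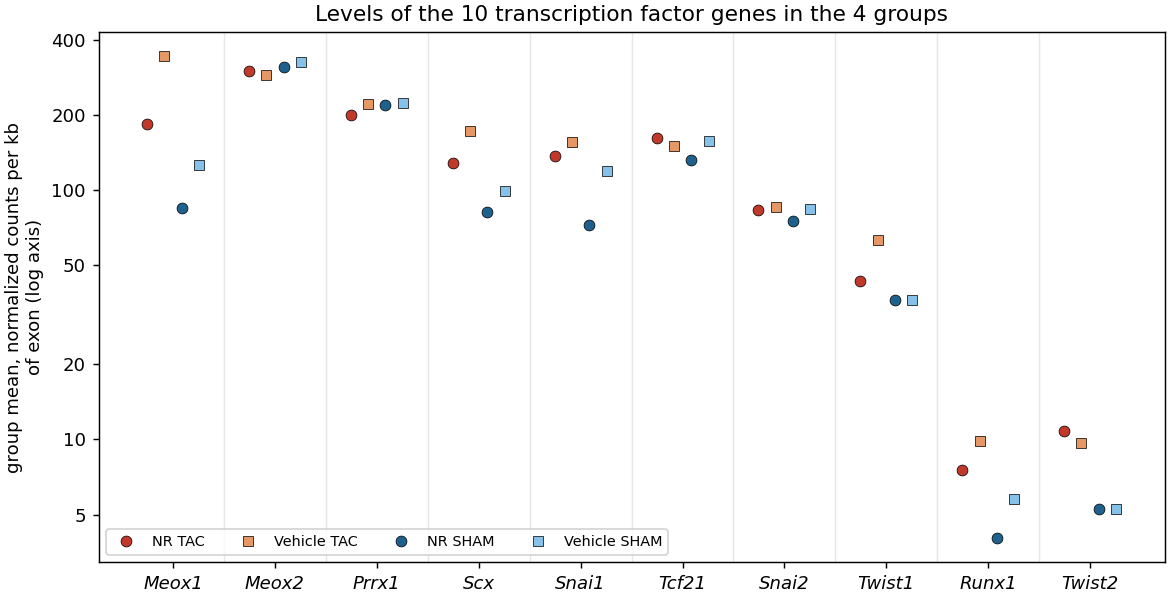
Group means of the 10 genes on the common scale, as normalized counts per kilobase of exon on a log axis, with 1 point per group and no error bars because the tables give means alone. Meox1 spans 84.7 in NR SHAM to 343 in Vehicle TAC, while Meox2 stays between 289 and 324.

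Meox1 was the member with the highest TAC fold change in both arms. On the common scale it averaged 409.7 normalized counts in NR TAC and 764 in Vehicle TAC, against 189 in NR SHAM and 279.9 in Vehicle SHAM. Both TAC groups thus lay above both SHAM groups, and within each operation NR lay below vehicle. With NR, Meox1 rose 2.16-fold after TAC in the authors' deposited table (log2 fold change 1.11, approximate SE 0.30, DESeq adjusted p 0.0368). For vehicle hearts, its mean in the authors' deposited table was 829 after TAC and 304 after SHAM, a log2 fold change of 1.45 that did not pass (approximate SE 0.55, DESeq adjusted p 0.750). Of the genes whose mean was 50 or more, 1.55% had a log2 fold change at or above that of Meox1 in NR hearts, and 2.11% in vehicle hearts. Meox1 lies on the minus strand of chromosome 11 from 101877510 to 101894374 (GRCm38) in 3 exon blocks, and its overlap with the antisense gene Gm11551 includes no shared exon base.

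Its paralog Meox2 averaged 707 in NR TAC and 682 in Vehicle TAC, against 734 in NR SHAM and 765 in Vehicle SHAM on the common scale. The log2 fold changes after TAC in the authors' deposited tables were −0.05 with NR and −0.17 with vehicle, with approximate 95% intervals of −0.27 to 0.16 and −0.64 to 0.31. Prrx1 averaged 2213 in NR TAC and 2449 in Vehicle TAC, against 2423 in NR SHAM and 2465 in Vehicle SHAM. The Prrx1 intervals for the TAC effect ran from −0.19 to 0.17 with vehicle and from −0.38 to 0.11 with NR. Errors worked out from p are unstable for fold changes near 0, so the widths for Meox2 and Prrx1 are a poor measure of precision. On GRCm38, GENCODE places Meox2 on the plus strand of chromosome 12 from 37108540 to 37179534, and Prrx1 on the minus strand of chromosome 1 from 163245119 to 163313710.

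Among the helix-loop-helix genes, Scx was higher after TAC in both arms, though neither value passed. Scx averaged 258 in NR TAC and 345 in Vehicle TAC, against 164 in NR SHAM and 198 in Vehicle SHAM. The authors' deposited tables gave log2 fold changes of 0.65 with NR (unadjusted p 0.0215, DESeq adjusted p 0.535) and 0.80 with vehicle (unadjusted p 0.0437, DESeq adjusted p 1). Scx lies wholly inside Bop1, a ribosome biogenesis gene on the opposite strand, without sharing exon bases, and whether the counting used strand is not given in the sources used here. Bop1 had log2 fold changes of 0.18 with NR and 0.26 with vehicle in the authors' deposited tables, and its part in the Scx values was not tested. GENCODE places Scx on the plus strand of chromosome 15 from 76457452 to 76459458, and Tcf21 on the minus strand of chromosome 10 from 22817281 to 22820174. It places Twist1 on the plus strand of chromosome 12 from 33957671 to 33959829, and Twist2 on the plus strand of chromosome 1 from 91801461 to 91848028.

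Twist1 averaged 70.1 in NR TAC and 102 in Vehicle TAC, against 59.2 in NR SHAM and 58.7 in Vehicle SHAM. Its log2 fold changes after TAC in the authors' deposited tables were 0.24 with NR and 0.79 with vehicle (DESeq adjusted p 1 in both). Twist2, whose counts were the lowest of the 10, averaged 34.4 in NR TAC and 30.6 in Vehicle TAC, against 16.7 in NR SHAM and 16.7 in Vehicle SHAM. The Twist2 log2 fold changes in the authors' deposited tables were 0.997 with NR (DESeq adjusted p 0.780) and 0.84 with vehicle (DESeq adjusted p 1). Twist2 shares 1477 exon bases with the antisense gene Gm29100, whose group means did not exceed 2.73 in the authors' deposited tables. Tcf21, the marker of resident fibroblasts, averaged 380.4 in NR TAC and 353 in Vehicle TAC, against 309.6 in NR SHAM and 369.8 in Vehicle SHAM. The Tcf21 fold changes after TAC had opposite signs in the authors' deposited tables, 0.30 with NR and −0.07 with vehicle on the log2 scale, and neither passed. Tcf21 lies wholly inside the antisense gene Gm10824 without sharing exon bases; the group means of Gm10824 did not exceed 17.7 in the authors' deposited tables.

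Snai1 averaged 222 in NR TAC and 252 in Vehicle TAC, against 118 in NR SHAM and 193 in Vehicle SHAM, so NR SHAM had the lowest mean of the 4 groups. In the authors' deposited tables its log2 fold change after TAC was 0.91 with NR (unadjusted p 0.00544, DESeq adjusted p 0.287) and 0.38 with vehicle (unadjusted p 0.0834, DESeq adjusted p 1). Snai2 ranged only from 152 in NR SHAM to 172 in Vehicle TAC on the common scale. GENCODE has Snai1 on the plus strand of chromosome 2 from 167538195 to 167542814, and Snai2 on the plus strand of chromosome 16 from 14705852 to 14709385. The runt-domain gene Runx1 spans chromosome 16 from 92601466 to 92826149 on the minus strand. It averaged 90.8 in NR TAC and 118 in Vehicle TAC, against 48.5 in NR SHAM and 69.4 in Vehicle SHAM. In the authors' deposited tables Runx1 had log2 fold changes of 0.89 with NR (DESeq adjusted p 0.737) and 0.76 with vehicle (DESeq adjusted p 1). Both TAC groups lay above both SHAM groups for Runx1, and the approximate 95% intervals of −0.01 to 1.80 and −0.19 to 1.71 include 0. Runx1 shares 106 exon bases with the antisense gene Gm26626, whose reads cannot be told apart from its own there without strand.

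**Figure D2:**
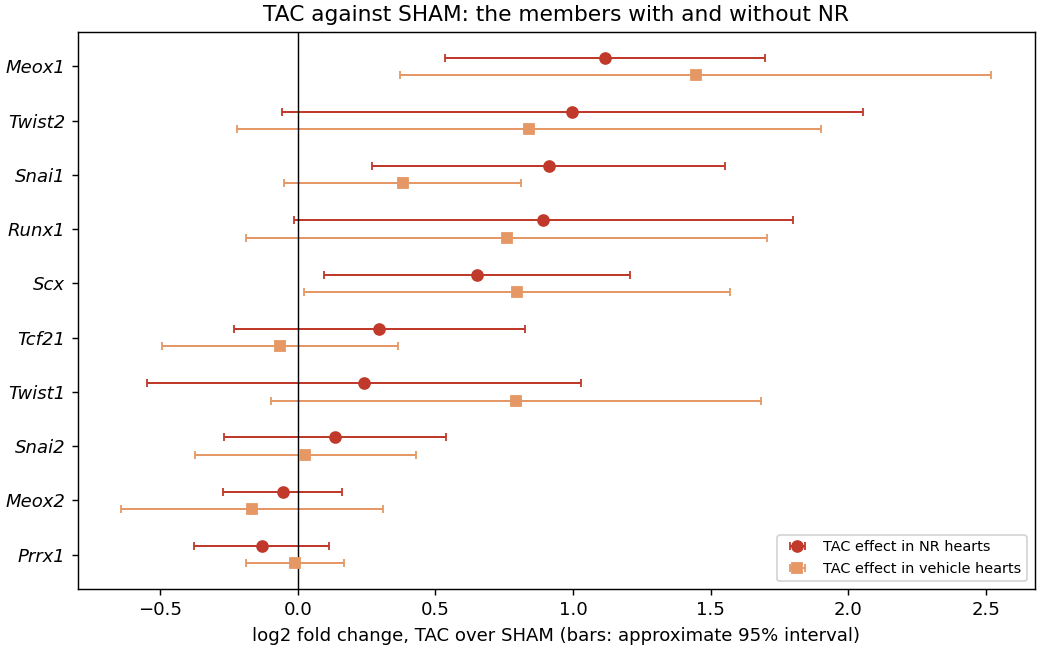
Log2 fold changes of TAC over SHAM for each gene with NR (circles) and with vehicle (squares), from the authors' deposited tables; bars are approximate 95% intervals worked out from the deposited p-values. Meox1 has the highest value in both arms, 1.11 and 1.45, and Prrx1 and Meox2 lie near 0.

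Counted over the 10 members, 1 was called after TAC with NR at a DESeq adjusted p below 0.05, where 0.549% of all 20946 genes were called in the authors' deposited table. With vehicle 0 were called, where 0.0487% of all 20540 genes were. At an unadjusted p below 0.05 the counts were 3 with NR (Meox1, Scx and Snai1), where 6.98% of all genes fell below it, and 2 with vehicle (Meox1 and Scx), where 4.89% did. The median log2 fold change of the members was 0.47 with NR and 0.57 with vehicle, and that of all genes was 0.02 and 0.01 in the authors' deposited tables. Fold changes were positive in both arms for 7 members, namely Meox1, Scx, Snai1, Snai2, Twist1, Twist2 and Runx1. Because the members were chosen with these tables in view, nothing is read from the counts.

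NR against vehicle was the other question of the design, and no gene at all was called in either operation (0% of 21420 genes in TAC hearts and 0% of 19917 in SHAM hearts, DESeq adjusted p below 0.05). In the authors' deposited table Meox1 had group means of 451 in NR TAC and 844 in Vehicle TAC, a log2 fold change of −0.90 (approximate SE 0.39, unadjusted p 0.0192, DESeq adjusted p 1). It was the single member with an unadjusted p below 0.05 in TAC hearts, where 2.61% of all genes had one. Twist1 had a log2 fold change of −0.54, Scx −0.43 and Runx1 −0.38 in the same authors' deposited table, each with an unadjusted p above 0.05. Snai1 had −0.18, Prrx1 −0.15 and Snai2 −0.05 there. The values of Twist2 (0.16), Tcf21 (0.10) and Meox2 (0.05) were positive in the authors' deposited table, and the median over the members was −0.17.

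In SHAM hearts the member with the lowest value was Snai1, with group means of 118 in NR SHAM and 193 in Vehicle SHAM in the authors' deposited table. Its log2 fold change was −0.71 (approximate SE 0.22, unadjusted p 0.00103, DESeq adjusted p 1), a p that ranked 8 among 19917 genes of the authors' deposited table. It was the single member with an unadjusted p below 0.05 there, where 1.88% of all genes had one. Meox1 (−0.57, unadjusted p 0.148) and Runx1 (−0.51, unadjusted p 0.101) had the next lowest values in the authors' deposited table. Twist1 (0.01) and Twist2 (0.00) had values near 0 in the authors' deposited table. Their approximate 95% intervals, −0.74 to 0.76 and −0.72 to 0.73, were wide, but errors worked out from p are unstable so close to 0. Of the 10 members, 6 had negative values in both NR comparisons: Meox1, Scx, Snai1, Snai2, Runx1 and Prrx1. The median of the members in SHAM hearts was −0.20 in the authors' deposited table, where the lists of cell markers went both ways with NR. Hepatocyte (17 of 20, median 2.02), red cell and platelet (7 of 11, 0.16) and cardiomyocyte markers (7 of 12, 0.03) were mostly positive. Endothelial (9 of 12), mural (7 of 10) and adipocyte markers (8 of 9) were mostly negative. Negative values were found for 15 of 15 fibroblast markers (median −0.18), 14 of 15 macrophage markers (−0.09), 8 of 10 epicardial markers (−0.35) and 20 of 24 activated fibroblast genes (−0.23), with 0 called and with 1 of them, an epicardial marker, at an unadjusted p below 0.05. Their part in the members' values was not tested.

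**Figure D3:**
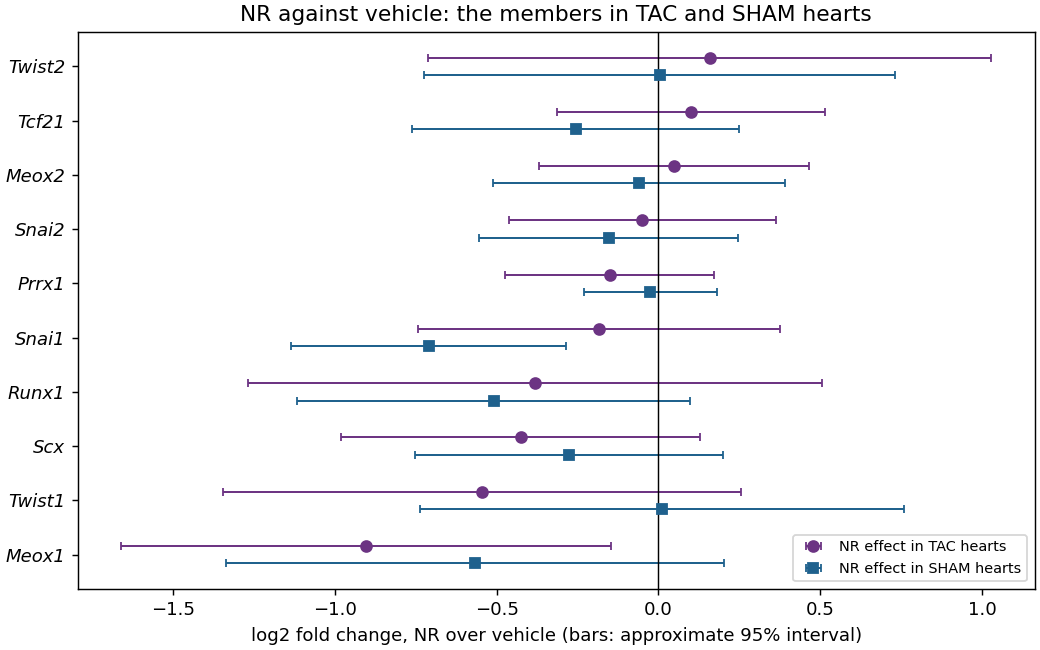
Log2 fold changes of NR over vehicle for each gene in TAC hearts (circles) and SHAM hearts (squares), from the authors' deposited tables, with approximate 95% intervals as bars. Meox1 in TAC hearts (−0.90) and Snai1 in SHAM hearts (−0.71) are the values whose bars lie wholly below 0.

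Whether TAC acted differently with NR was asked by subtracting the log2 fold changes, NR hearts minus vehicle hearts, with errors from the deposited p-values. Over 18774 genes 0% passed a Benjamini-Hochberg adjusted p of 0.05, and 0.842% had an unadjusted p below 0.05, a smaller share than a well calibrated test gives without any difference, so the approximate test makes few calls. None of the 10 members had either. The difference for Meox1 was −0.33 (95% interval −1.55 to 0.89). Snai1 had the largest positive difference, 0.53 (−0.24 to 1.30), and Twist1 the largest negative one, −0.55 (−1.74 to 0.64). Every one of the 10 intervals includes 0, and intervals of this width do not show that the effects were alike.

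Ratios between paralogs within a group do not depend on the scaling of a table. Meox1 to Meox2, per kilobase of exon, was 0.614 in NR TAC and 1.19 in Vehicle TAC, against 0.272 in NR SHAM and 0.388 in Vehicle SHAM. Meox1 was thus the less abundant of the pair in every group but Vehicle TAC. Snai1 to Snai2 was 1.66 in NR TAC and 1.82 in Vehicle TAC, against 0.966 in NR SHAM and 1.43 in Vehicle SHAM. Twist1 to Twist2 was 3.98 in NR TAC and 6.52 in Vehicle TAC, against 6.89 in NR SHAM and 6.86 in Vehicle SHAM, so NR TAC had the lowest ratio. These ratios were not tested, since the tables give no error for them.

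**Figure D4:**
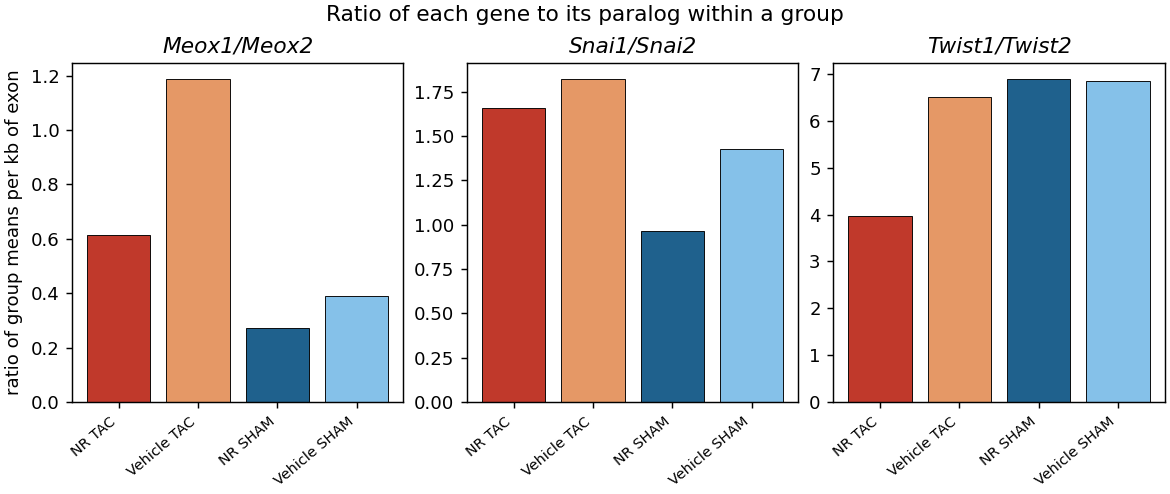
Ratio of the group means of each paralog pair per kilobase of exon, 1 bar per group, axes starting at 0, without error bars because only group means are given. Meox1 to Meox2 exceeds 1 in Vehicle TAC alone, at 1.19, and Twist1 to Twist2 is lowest in NR TAC, at 3.98.

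The genes whose 4 fold changes lay closest to those of Meox1, out of 11450 genes averaging 50 or more in every group, were Tnfrsf12a, Ptn, Fn1, Rcan1 and Pdgfrl. Likeness was the largest absolute difference in log2 fold change over the 4 comparisons, which was 0.18 for Tnfrsf12a, 0.19 for Ptn, 0.20 for Fn1, 0.25 for Rcan1 and 0.28 for Pdgfrl. Tnfrsf12a encodes the receptor of the cytokine TWEAK, Ptn the growth factor pleiotrophin, Fn1 the matrix protein fibronectin and Rcan1 an inhibitor of calcineurin. In the authors' deposited tables Tnfrsf12a had log2 fold changes of 1.17 with NR and 1.32 with vehicle after TAC, and Rcan1 of 1.01 and 1.63. None of the 5 was called in any comparison by DESeq in the authors' deposited tables, and Fn1 was also on the list of activated fibroblast genes.

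Genes that activated fibroblasts make had higher fold changes after TAC, by their medians, than the members. Of 24 such genes, 23 had positive fold changes with NR (median log2 fold change 1.102) and 24 with vehicle (median 1.80) in the authors' deposited tables. With NR 1 rose, Ctgf, a matricellular growth factor gene (1.56, DESeq adjusted p 0.0226), and with vehicle 0 passed; 12 genes had an unadjusted p below 0.05 with NR and 8 with vehicle. Timp1, an inhibitor of matrix proteases (2.998 with NR and 2.93 with vehicle), and Ltbp2, a microfibril protein (2.26 and 3.35), had the highest log2 fold changes of an arm, among genes with a mean of 50 or more, in the authors' deposited tables, while Fap (−0.16 with NR) and Acta2, smooth muscle actin (0.12 with vehicle), had the lowest. All 24 were lower in NR TAC than in Vehicle TAC (median −0.74), and 0 passed, 1 having an unadjusted p below 0.05. The 15 identity markers of resident fibroblasts had medians of 0.34 with NR and 0.27 with vehicle after TAC, with 0 called and with 1 and 0 at an unadjusted p below 0.05. They ran from Lamb1 (−0.04) to Mfap5 (1.38) with NR and from Ddr2 (−0.26) to Mfap5 (1.76) with vehicle in the authors' deposited tables. In both arms, 5 members (Meox1, Scx, Snai1, Twist2 and Runx1) lay above the medians of these markers, a comparison of values and not a test.

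Of the partners and inhibitors of the members, 11 had a value, E proteins and Id genes among them. The fold changes after TAC were positive for 9 of them with NR and 6 with vehicle, 0 were called in any comparison and the medians after TAC were 0.13 with NR and 0.07 with vehicle; 2 had an unadjusted p below 0.05 with NR and 0 with vehicle. The extremes in the authors' deposited tables were Id4 (0.89) and Ldb1 (−0.08) with NR, and Id2 (0.64) and Hand2 (−0.16) with vehicle. The 4 Id genes, inhibitors of the helix-loop-helix factors, had positive log2 fold changes in both arms of the authors' deposited tables, between 0.29 and 0.89 with NR and between 0.18 and 0.64 with vehicle. Among 10 further relatives 0 were called and the medians were 0.31 and 0.12, with 1 and 2 at an unadjusted p below 0.05. Runx2 had a log2 fold change of 0.54 with NR and 1.07 with vehicle, and Snai3 of −1.08 and −0.69, in the authors' deposited tables. Snai3 thus lay opposite in sign to its relative Snai1. Of 30 other factors used by fibroblasts, epicardium or myofibroblasts, 3 rose with NR after TAC, Egr1 (1.30, DESeq adjusted p 0.00637), Klf4 (0.72, 0.0121) and Junb (0.86, 0.0368) in the authors' deposited table. Of all genes there, 0.549% were called. Egr1 and Junb are immediate early genes and Klf4 is a zinc-finger factor. With vehicle, the log2 fold changes after TAC were 0.08 for Egr1, 0.11 for Klf4 and 0.45 for Junb in the authors' deposited table. These 3 were lower in NR SHAM than in Vehicle SHAM, at −1.36 for Egr1, −0.52 for Klf4 and −0.56 for Junb. Those values did not pass (DESeq unadjusted p 0.000864, 0.00872 and 0.00978). For NR TAC over Vehicle TAC the log2 fold changes were −0.15 for Egr1, 0.08 for Klf4 and −0.16 for Junb. With vehicle 0 of the 30 were called after TAC and 1 had an unadjusted p below 0.05; Foxs1 was highest (0.60) and Smad3 lowest (−0.35) in the authors' deposited table, and Smad3 was lowest with NR too (−0.35).

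**Figure D5:**
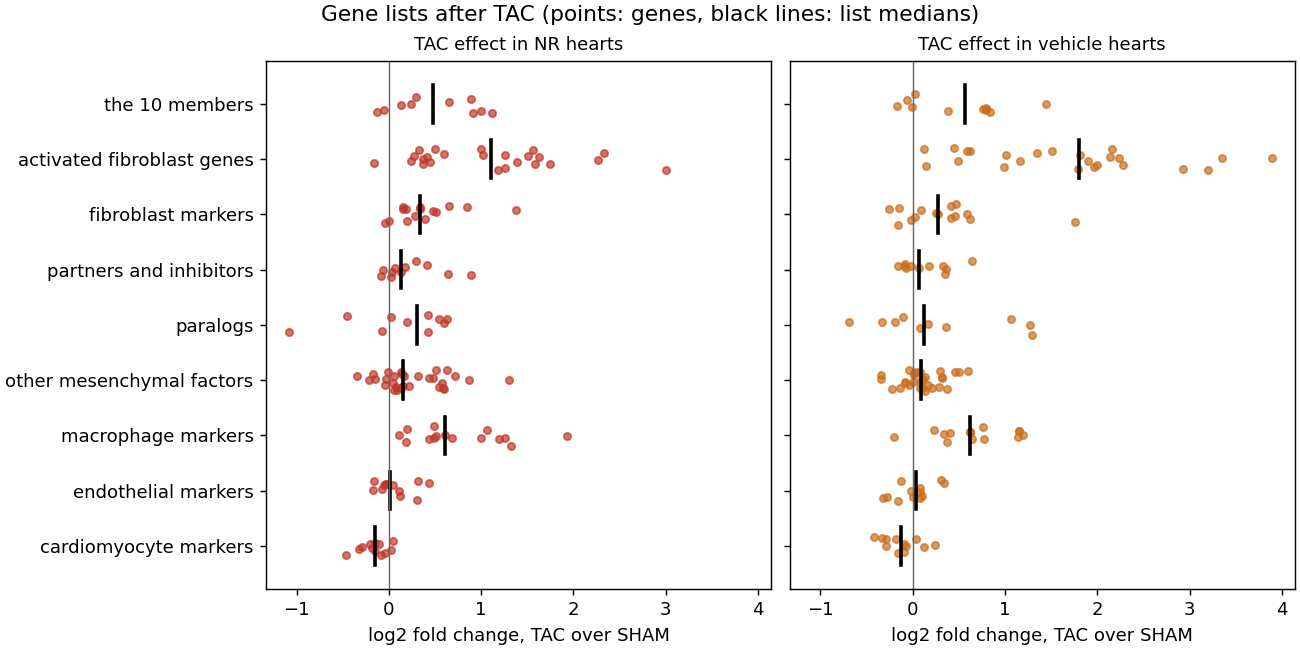
Log2 fold changes of TAC over SHAM for the 10 members and for lists of related genes and cell markers (blood, epicardial, mural, adipocyte and hepatocyte markers not drawn), with NR (left) and with vehicle (right); each point is a gene and each black line a list median. Activated fibroblast genes have medians of 1.102 with NR and 1.80 with vehicle, against 0.47 and 0.57 for the members.

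Markers of other cells also differed in group mean. Macrophage markers had positive fold changes after TAC in 15 of 15 genes with NR and 14 of 15 with vehicle (medians 0.61 and 0.62), with summed means of 16671 in NR TAC against 10105 in NR SHAM and 16747 in Vehicle TAC against 11339 in Vehicle SHAM, and none at 0. Red cell and platelet markers were positive in 11 of 12 genes with NR and 12 of 12 with vehicle (medians 0.60 and 1.04). Their summed means were 44417 in NR TAC against 24094 in NR SHAM, and 43706 in Vehicle TAC against 23169 in Vehicle SHAM. Runx1 acts in blood cells, and the part of macrophages, red cells and platelets in its values was not tested. Epicardial markers had medians of 0.65 with NR and 0.45 with vehicle, mural markers 0.05 and −0.03, endothelial markers 0.01 and 0.04, and cardiomyocyte markers −0.15 and −0.13. The medians of adipocyte markers had opposite signs, 1.18 with NR and −1.79 with vehicle, as did those of the 20 hepatocyte markers, −2.49 and 8.34. The brown fat gene Ucp1 had a mean of 146 in NR TAC against 0 in NR SHAM in the authors' deposited table, and was also 0 in Vehicle TAC. It had no value in the comparisons without NR TAC, and its part in the members' values was not tested. Of the cell marker lists, none had a gene called in any of the 4 comparisons by DESeq in the authors' deposited tables, while 14 of the 20 hepatocyte genes had an unadjusted p below 0.05 for NR against vehicle in TAC hearts. The part of these cells in the members' values was not tested.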

How the data were processed

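The 16 heart libraries fall into 4 groups by operation and treatment. The submitters' processing notes name TopHat, HTSeq, DESeq and the build GRCm38, without versions. The signal columns of the 4 deposited tables hold, per the file headers, the authors' mean normalized count of each group, scaled within its pair of groups. The authors' fold is a ratio of means after a pseudocount of 1 is added to each, which understates changes of low genes, and their log2 column was matched to it by recomputing. The deposited p-value is the authors' DESeq test of the pair, and recomputing by Benjamini and Hochberg over a whole table gave back its adjusted p. A gene was called at an adjusted p below 0.05.

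Members and lists were chosen with earlier results of these data known. For the common scale, tables were brought to the one of the 2 SHAM groups by the median ratio of a shared group's means (1.09 for Vehicle SHAM, 1.03 for NR SHAM, over genes averaging 50 or more). Approximate errors divide a log2 fold change by the normal quantile matching its p. The difference of TAC effects is an approximate z across all genes with both errors. A run on simulated counts took its p-values from the same normal formula, so it does not check errors worked out from DESeq p-values. Depth per library is not used here. Exon lengths are unions of GENCODE M21 exons, and promoters are from RefSeq. Genes named from a list were those called, and those with the highest and lowest TAC fold change at a mean of at least 50; for markers of cells other than fibroblasts, list values are given. Hand1, Ferd3l and Scrt1 had no value. Scripts used Python 3.11.15, pandas 2.3.3, SciPy 1.17.1 and matplotlib 3.10.9. Alternatives changed the threshold, a minimum mean, the pseudocount, the centring and the tables used.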

Additional observations from a re-analysis of the deposited data

How the results depend on the processing

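The call of Meox1 after TAC with NR held when DESeq p-values were adjusted again over genes with a mean of at least 10 (adjusted p 0.0271) or 50 (0.0237). At a threshold of 0.01, 0 members were called in the authors' deposited table. A threshold of 0.1 could not remove the call, and the count there stayed at 1. The counts of 0 in the other comparisons, and in the difference of TAC effects taken from the TAC or the NR tables, were 0 under every alternative run. The threshold of 0.01 could not have raised them. A pseudocount of 5, or none, cannot change the sign of a log2 fold change, so the kept signs there carry no information. Every log2 fold change of a member also kept its sign when centred on the median of all genes averaging 50 or more. The number of members with their highest level in Vehicle TAC was 6 from the TAC tables, 7 from the NR tables and 6 on the common scale, an alternative chosen after seeing the data; only 4 members had the same order of the 4 groups in the TAC and the NR tables, because each table has its own scaling. Leaving out libraries in turn was not run, since the tables give group means. No paired analysis was possible because the columns are group means and the titles give no number shared between groups. Meox1 has the widest interval of the members in vehicle hearts, 0.37 to 2.52, and Twist2, Runx1 and Twist1 have low counts and wide intervals.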
